A study of Medicago truncatula with 6 samples.

Results

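The mitochondrial genes of Medicago truncatula and the promoter intervals placed before them were examined in small RNA libraries from mock-treated roots. Members were all features whose ID carries the mitochondrial tag MtrunA17MTg. They comprised 193 genes, 193 promoters of 1 kb and 174 promoters of 3 kb, 560 of the 400216 annotated features in each count table. The libraries came from roots with RNAi against SKI3 (3 libraries) and roots with RNAi against GUS (3 libraries). All were labelled wild type in genotype and mock in treatment. The agent behind the mock treatment, the age of the plants and the number of plants per library are not given in the sources used here, nor is it stated whether replicates came from separate plants. P-values therefore measure the spread between these libraries, which may be partly technical. The 193 gene IDs were looked up among the 50 mitochondrial genes of the RefSeq table, and 0 matched, so genes are given by ID and their roles are not stated.

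Plant mitochondria keep a genome of their own, which encodes ribosomal and transfer RNAs, subunits of the respiratory chain and factors for cytochrome c maturation. Their transcripts are trimmed and degraded inside the organelle by enzymes such as polynucleotide phosphorylase, and short fragments of organelle transcripts are commonly recovered in small RNA libraries. The Superkiller complex, of which SKI3 is a part, assists the exosome in RNA decay in the cytoplasm. GUS, a bacterial reporter enzyme, is a customary control target for RNAi. Copies of mitochondrial DNA are frequent in plant nuclear genomes, so that a short read can align to both.

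Total counts were 2324061 to 2851473 in SKI3 RNAi libraries and 2168297 to 3974092 in GUS RNAi libraries. Counts were divided by these totals to give CPM, the count scaled to a common library total. A count of 3, taken as the detection floor, corresponded to 1.05 to 1.29 CPM in SKI3 RNAi libraries and 0.755 to 1.38 CPM in GUS RNAi libraries. Floors cover counting error only. A header line in SKI3 RNAi replicate 3 names read lengths of 21 to 22 nt, which the other tables do not state. Feature lengths are not in the tables, so a larger count does not mean a higher level per length.

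Nearly all mitochondrial small RNA counts lay in 6 features. These held 93.2% to 94.9% of the counts of all mitochondrial features in SKI3 RNAi libraries and 95.0% to 96.4% in GUS RNAi libraries. The genes MtrunA17MTg0490131 and MtrunA17MTg0491231 alone held 92.9% to 94.6% of mitochondrial gene counts in SKI3 RNAi and 94.4% to 95.9% in GUS RNAi. Among 3 kb promoters, those of MtrunA17MTg0490121, MtrunA17MTg0491251 and MtrunA17MTg0491271 held 98.2% to 99.0% in SKI3 RNAi and 98.9% to 99.3% in GUS RNAi. Among 1 kb promoters, the counts were less concentrated, and that of MtrunA17MTg0491251 held 46.6% to 59.2% in SKI3 RNAi and 44.5% to 55.7% in GUS RNAi. Of the 10 features with the most counts in the whole table, 5 were mitochondrial. The 6 features are not all separate measurements. In every library the 1 kb and 3 kb promoter counts of MtrunA17MTg0491251 nearly added up to the count of MtrunA17MTg0491231. The shares may therefore count the same reads more than once. The remaining members held few counts. The median gene had 9 counts over all 6 libraries, the median 1 kb promoter 6 and the median 3 kb promoter 3. No count in any library was found for 28 genes, 17 promoters of 1 kb and 44 promoters of 3 kb, and 90 genes had a count in every library.

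The gene MtrunA17MTg0490131 had the most counts of any mitochondrial feature. It had 4178, 4526 and 5642 CPM in SKI3 RNAi replicates 1, 2 and 3, against 5772, 5554 and 5057 CPM in GUS RNAi replicates 1, 2 and 3. SKI3 RNAi replicates 1 and 2 were below all GUS RNAi libraries, and SKI3 RNAi replicate 3 lay within their range. By edgeR's quasi-likelihood test, with p-values adjusted over all tested features, the log2 difference was -0.28 ± 0.208 (SE, adjusted p = 0.855), and it was -0.48 without SKI3 RNAi replicate 3.

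The 3 kb promoter of MtrunA17MTg0490121 is listed directly after this gene in the tables. It had 2178, 2260 and 3524 CPM in SKI3 RNAi and 4227, 2924 and 3109 CPM in GUS RNAi. The groups overlapped through SKI3 RNAi replicate 3, and edgeR gave a log2 difference of -0.45 ± 0.264 (SE, adjusted p = 0.834), which was -0.78 without SKI3 RNAi replicate 3. With GUS RNAi replicate 1 left out it was -0.28. The gene MtrunA17MTg0490121 itself was near empty, with 0 counts in each SKI3 RNAi library and at most 1 count in a GUS RNAi library, and the 1 kb promoter of the same gene had at most 4 counts in any library. The high count thus stood in the 3 kb interval and neither in the gene nor in its 1 kb promoter. Set against the count of MtrunA17MTg0490131, the count of that promoter came to 52.1%, 49.9% and 62.5% in SKI3 RNAi and to 73.2%, 52.7% and 61.5% in GUS RNAi. This ratio of counts thus varied between libraries. Positions of the features are not given in the sources used here, so whether the promoter's reads lie within the gene was not tested. The group means were 54.8% ± 6.68 in SKI3 RNAi and 62.5% ± 10.3 in GUS RNAi (SD, n = 3 each). An exact two-sided permutation test of these means gave p = 0.4. The gene's count minus the promoter's count was 2000, 2266 and 2118 CPM in SKI3 RNAi and 1545, 2629 and 1948 CPM in GUS RNAi. This difference is a remainder of the gene only if the promoter's reads lie within it.

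**Figure D1:**
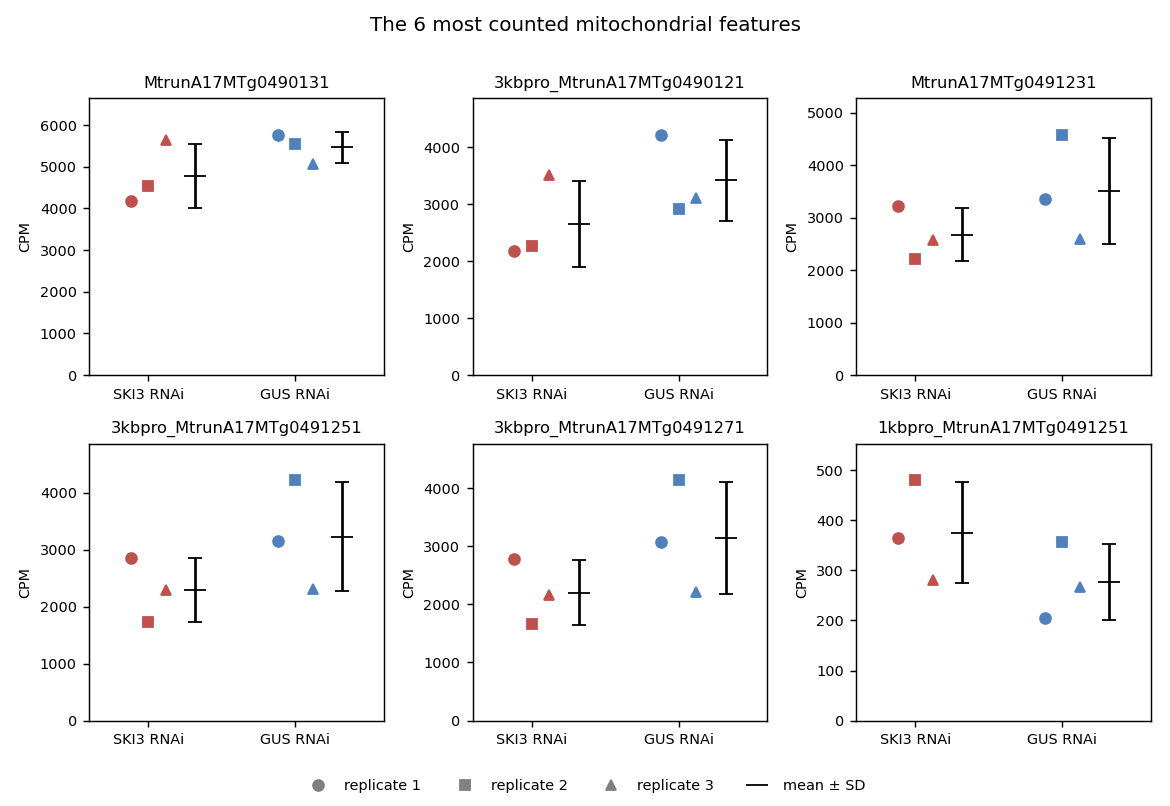
CPM of the 6 most counted mitochondrial features in each library, with SKI3 RNAi left of GUS RNAi. Points are libraries, marked by replicate number, and bars are mean ± SD (n = 3). The libraries of both groups overlap in all 6 panels.

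The gene MtrunA17MTg0491231 was the second most counted. It had 3225, 2218 and 2580 CPM in SKI3 RNAi and 3363, 4582 and 2588 CPM in GUS RNAi. GUS RNAi replicate 2 was the highest library, while GUS RNAi replicate 3 lay next to SKI3 RNAi replicate 3. In edgeR the log2 difference was -0.47 ± 0.234 (SE, adjusted p = 0.798).

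The 3 kb promoters of MtrunA17MTg0491251 and MtrunA17MTg0491271 are listed close after this gene, and their counts followed it. That of MtrunA17MTg0491251 had 2856, 1732 and 2296 CPM in SKI3 RNAi and 3155, 4223 and 2317 CPM in GUS RNAi. In edgeR its log2 difference was -0.57 ± 0.254 (SE, adjusted p = 0.754). That of MtrunA17MTg0491271 had 2785, 1665 and 2157 CPM in SKI3 RNAi and 3075, 4137 and 2212 CPM in GUS RNAi, a log2 difference of -0.59 ± 0.258 in edgeR (SE, adjusted p = 0.752). In both promoters SKI3 RNAi replicate 2 was the lowest library and GUS RNAi replicate 2 the highest, and SKI3 RNAi replicate 1 lay above GUS RNAi replicate 3. The gene MtrunA17MTg0491251 itself had 3 to 5 counts in SKI3 RNAi libraries and 2 to 7 in GUS RNAi libraries.

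The 1 kb promoter of MtrunA17MTg0491251 ran the other way in its mean. It had 365, 481 and 281 CPM in SKI3 RNAi and 206, 357 and 266 CPM in GUS RNAi. The groups overlapped, and edgeR gave a log2 difference of 0.35 ± 0.229 (SE, adjusted p = 0.847). It was 0.17 without SKI3 RNAi replicate 2, and 0.16 when GUS RNAi replicate 1 was left out. In every library the counts of the 1 kb and the 3 kb promoter of MtrunA17MTg0491251 added up to the count of MtrunA17MTg0491231 with 8 to 12 counts to spare in SKI3 RNAi and 5 to 15 counts to spare in GUS RNAi. The 1 kb promoter's count equalled 11.3%, 21.7% and 10.9% of the gene's count in SKI3 RNAi libraries and 6.11%, 7.79% and 10.3% in GUS RNAi libraries. Every SKI3 RNAi library was above every GUS RNAi library (14.6% ± 6.11 and 8.06% ± 2.1, SD, n = 3 each). With 3 libraries against 3, an exact two-sided permutation test reaches at best the p of 0.1 found here, which was 0.225 after adjustment over the 9 values tested per library. The margin was narrow, between 10.9% in SKI3 RNAi replicate 3 and 10.3% in GUS RNAi replicate 3. The difference of 6.56 percentage points was 3.04 without SKI3 RNAi replicate 2. This ratio was chosen after the values were seen.

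**Figure D2:**
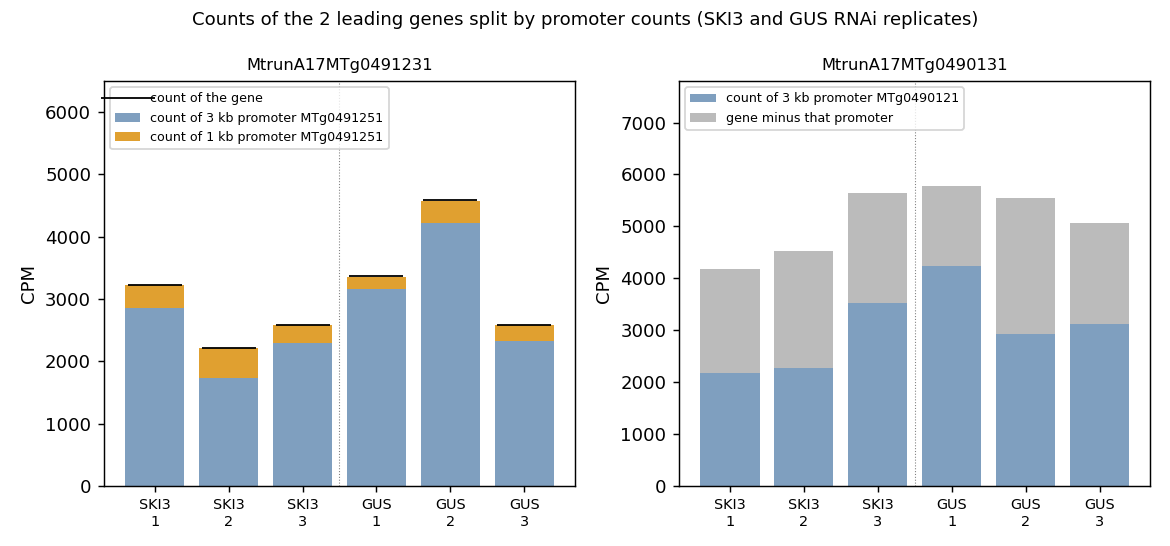
Stacked bars of CPM in each library for the 2 leading mitochondrial genes, with SKI3 RNAi libraries left of GUS RNAi libraries and the gene's own CPM as black lines (left). In MtrunA17MTg0491231 (left) the counts of 1 kb and 3 kb promoters of MtrunA17MTg0491251 add up to the gene's count except for 5 to 15 counts. In MtrunA17MTg0490131 (right) the count of the 3 kb promoter of MtrunA17MTg0490121 equals 49.9% to 73.2% of the gene's count. The rest of each right bar is the gene's count minus the promoter's, and whether gene and promoter share reads was not tested.

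Closely similar counts were also listed outside the mitochondrial features. The gene MtrunA17Chr0c03g0489931, whose ID places it on a sequence named Chr0c03 and not on a numbered chromosome, had 4692, 5156 and 6267 CPM in SKI3 RNAi and 6190, 6251 and 5618 CPM in GUS RNAi. The count of MtrunA17MTg0490131 equalled 89.0%, 87.8% and 90.0% of it in SKI3 RNAi libraries and 93.2%, 88.8% and 90.0% in GUS RNAi libraries. The 3 kb promoter of MtrunA17Chr0c03g0489921 likewise had a count equal to 73.7% to 83.5% of that of the mitochondrial 3 kb promoter of MtrunA17MTg0490121 in SKI3 RNAi and 76.9% to 90.8% in GUS RNAi. Of 39 mitochondrial features with at least 100 counts in all, 2 had exactly the same 6 counts as a feature outside, and both matches were to Chr0c03. These were the 1 kb promoters of MtrunA17MTg0491891 and MtrunA17MTg0491901, with 121 and 138 counts over all libraries. How reads with several alignments were counted is not stated, so counts at mitochondrial and Chr0c03 features cannot be told apart as separate measurements. The matches were looked for after the values were seen.

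The share of each library held by mitochondrial features was then compared between groups, genes apart from promoters. Mitochondrial genes held 0.791%, 0.726% and 0.870% of the counts in SKI3 RNAi replicates 1, 2 and 3, against 0.952%, 1.060% and 0.809% in GUS RNAi replicates 1, 2 and 3. The mean was 0.795% ± 0.0721 in SKI3 RNAi and 0.941% ± 0.126 in GUS RNAi (SD, n = 3 each, exact two-sided permutation p = 0.2). GUS RNAi replicate 3 lay below SKI3 RNAi replicate 3, so the groups overlapped. Promoters of 3 kb held 0.792%, 0.576% and 0.806% in SKI3 RNAi and 1.055%, 1.14% and 0.773% in GUS RNAi (exact permutation p = 0.3). Promoters of 1 kb held 0.0682%, 0.0812% and 0.0602% in SKI3 RNAi and 0.0462%, 0.0641% and 0.0545% in GUS RNAi (exact permutation p = 0.2). The means of genes and 3 kb promoters were lower in SKI3 RNAi and that of 1 kb promoters was higher, and the groups overlapped in all 3. These classes are not separate measurements. The 3 kb promoters of MtrunA17MTg0491251 and MtrunA17MTg0491271 had counts 155 to 363 apart in SKI3 RNAi and 185 to 368 apart in GUS RNAi. Both followed the gene MtrunA17MTg0491231, so the lower means of genes and 3 kb promoters may partly repeat the same counts. With a total that omits the 10 most counted features, the difference of 3 kb promoters was -0.36 percentage points with an exact permutation p of 0.1. That of genes was -0.22 and that of 1 kb promoters 0.013, each with an exact permutation p of 0.2. The omitted features include both leading genes and the most counted 3 kb promoters, so this total leaves out much of the mitochondrial count itself. Taken as shares of organelle counts, 1 kb promoters differed by 1.46 percentage points and 3 kb promoters by -5.36, each with an exact permutation p of 0.1. Genes differed by 0.99 on this total, with the sign turned (exact permutation p = 0.6). After adjustment over the 9 values tested per library, the p on full library totals was 0.3 for genes, 0.338 for 3 kb promoters and 0.3 for 1 kb promoters. The p-values on the other totals were not adjusted.

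The direction of the gene share turned round once both leading genes were set aside, a split chosen, like those of the promoters, after the values were seen. The 191 other genes held 0.0510%, 0.0512% and 0.0474% of the counts in SKI3 RNAi and 0.0390%, 0.0467% and 0.0450% in GUS RNAi. Every SKI3 RNAi library was above every GUS RNAi library, with means of 0.0498% ± 0.00214 in SKI3 RNAi and 0.0436% ± 0.00402 in GUS RNAi (SD, n = 3 each). The exact two-sided permutation p was 0.1, the smallest possible, with an adjusted p of 0.225. The difference of 0.0063 percentage points was 0.0040 without GUS RNAi replicate 1. The 192 other 1 kb promoters held 0.0317%, 0.0331% and 0.0321% in SKI3 RNAi and 0.0256%, 0.0284% and 0.0279% in GUS RNAi, again without overlap (exact permutation p = 0.1, adjusted p 0.225). The 171 other 3 kb promoters held 0.00827% to 0.0101% in SKI3 RNAi and 0.00802% to 0.00918% in GUS RNAi, which overlapped (exact permutation p = 0.3). These shares depend on the library total, in which a few nuclear features weigh heavily. The 10 most counted features also include 5 mitochondrial ones, which are leading genes and 3 kb promoters, and others on Chr0c03. With a total that omits the 10 most counted features, the difference for the 191 genes was 0.0041 percentage points (exact permutation p = 0.3). That for the 192 promoters of 1 kb was 0.0038 (exact permutation p = 0.1). On the log2 scale the share of the 191 genes differed by 0.20. Scaled by total counts alone, all tested features had a median log2 fold change of 0.12. Of all tested features, 10.5% were higher in SKI3 RNAi without overlap of CPM and 3.6% lower.

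**Figure D3:**
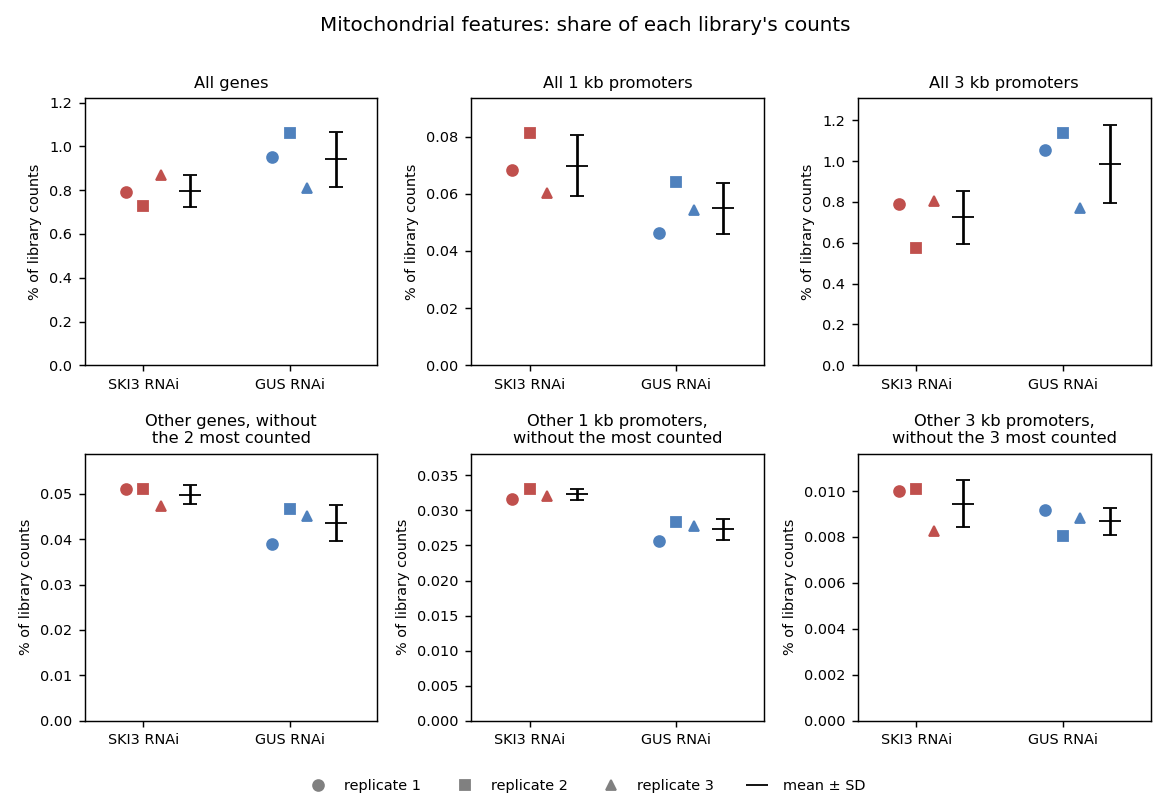
Percent of each library's counts in mitochondrial genes, 1 kb promoters and 3 kb promoters, over all members (upper row) and without the most counted ones (lower row). Points are libraries and bars are mean ± SD (n = 3), with SKI3 RNAi left of GUS RNAi. The groups overlap in the upper row, and they separate for the 191 other genes and the 192 other 1 kb promoters in the lower row.

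Plastid genes, the most similar class, served as a measure that does not depend on the library total. Mitochondrial genes held 11.4, 10.9 and 14.3 times the counts of the 134 plastid genes in SKI3 RNAi and 20.8, 17.7 and 15.7 times in GUS RNAi. All SKI3 RNAi libraries were below all GUS RNAi libraries. On the log2 scale the ratio was 3.60 ± 0.207 in SKI3 RNAi and 4.17 ± 0.203 in GUS RNAi (SD, n = 3 each), a difference of -0.57 (exact two-sided permutation p = 0.1, the smallest possible, adjusted p 0.225). Without MtrunA17MTg0490131 and MtrunA17MTg0491231, the ratio was 0.737, 0.769 and 0.777 in SKI3 RNAi and 0.853, 0.779 and 0.875 in GUS RNAi. The log2 difference was then -0.13 (exact permutation p = 0.1, not adjusted). The margin was narrow, between 0.777 in SKI3 RNAi replicate 3 and 0.779 in GUS RNAi replicate 2. Leaving out these genes was chosen after the values were seen. Both sides of the ratio differed in their means. Plastid genes themselves held 0.0691%, 0.0665% and 0.0609% of the counts in SKI3 RNAi and 0.0457%, 0.0599% and 0.0514% in GUS RNAi, with every SKI3 RNAi library above every GUS RNAi library. On the log2 scale the share of plastid genes differed by 0.33 and that of mitochondrial genes by -0.24. The leading gene held 52.8% to 64.9% of mitochondrial gene counts in SKI3 RNAi and 52.4% to 62.5% in GUS RNAi, whereas no plastid gene held more than 19.4% of plastid gene counts in any library.

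**Figure D4:**
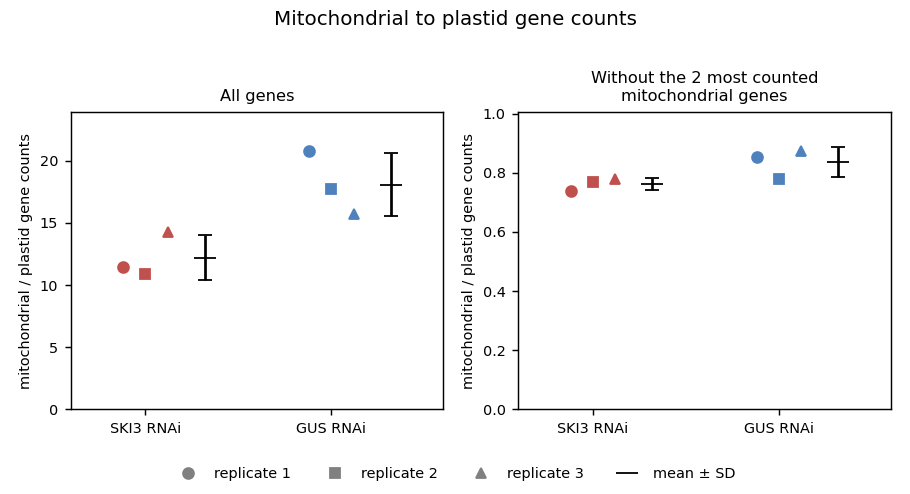
Counts in mitochondrial genes divided by counts in plastid genes for each library, over all genes (left) and without the 2 most counted mitochondrial genes (right), with SKI3 RNAi left of GUS RNAi. Points are libraries and bars are mean ± SD (n = 3). SKI3 RNAi libraries lie at 10.9 to 14.3 and GUS RNAi libraries at 15.7 to 20.8 in the left panel.

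Single features were tested on the whole table, where 50 of the 560 mitochondrial features had enough counts. These were 26 genes, 18 promoters of 1 kb and 6 promoters of 3 kb. In edgeR's quasi-likelihood test 0 of the 50 had an adjusted p under 0.05, as was the case for 0.0% of all 48283 tested features, and the smallest adjusted p among the 50 was 0.743. An unadjusted p under 0.05 was found for 5 of 50, 3 higher and 2 lower in SKI3 RNAi, beside 6.58% of all tested features (3.58% higher and 2.99% lower). Without SKI3 RNAi replicate 2 it was found for 1 of 58 members tested, beside 4.99% of all tested features. It was found for 2 of 58 without SKI3 RNAi replicate 1 (7.22% of all), 2 of 59 when GUS RNAi replicate 1 was left out (5.3% of all) and 2 of 58 without GUS RNAi replicate 2 (5.11% of all). The number stayed at 5 of 56 without GUS RNAi replicate 3 (4.84% of all) and 5 of 58 without SKI3 RNAi replicate 3 (8.94% of all). DESeq2 gave 0 past an adjusted p of 0.05 and 4 of 50 at an unadjusted p under 0.05, beside 2.38% of all tested features. Scaled by library totals, the CPM of both groups did not overlap in 9 of the 50, all of them higher in SKI3 RNAi, where 10.5% of all tested features were higher without overlap and 3.6% lower. The median log2 fold change was -0.0045 for the 26 genes, beside 0.02 for all tested features. The 18 promoters of 1 kb had a median of 0.19, with 16 above 0, and the 6 promoters of 3 kb had a median of -0.16, with 3 above 0 and 3 below (0.18 over both lengths). Of all tested features, 52.0% were above 0. Tested plastid genes leaned the same way as the 1 kb promoters, with a median of 0.21 and 28 of 36 above 0. With libraries scaled by total counts alone the median of all tested features was 0.12, that of the 26 genes 0.10, that of 1 kb promoters 0.28 and that of 3 kb promoters -0.067.

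**Figure D5:**
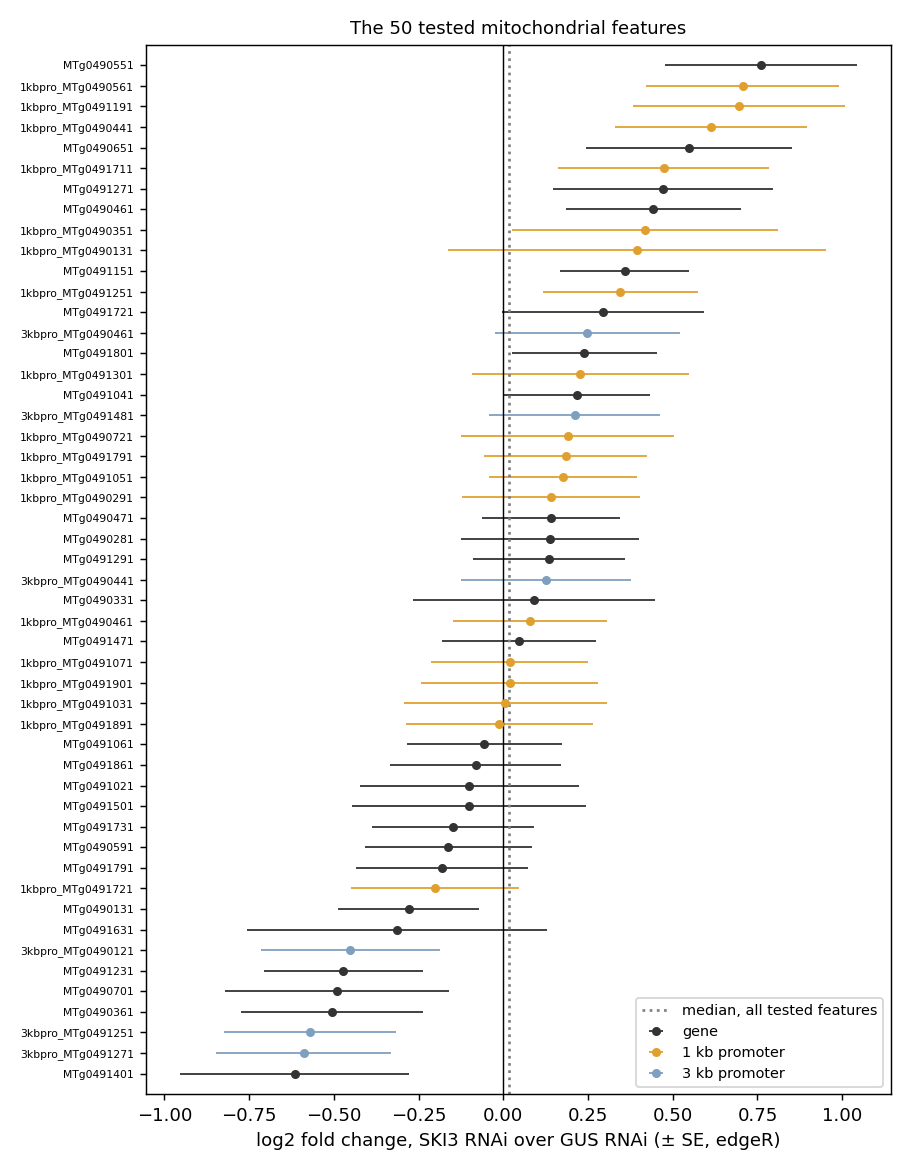
Log2 fold change (SKI3 RNAi over GUS RNAi) with its standard error for the 50 tested mitochondrial features, coloured by class and sorted by value. The dotted line is the median of all tested features at 0.02. The values run from -0.62 to 0.76, and the genes MtrunA17MTg0490131 and MtrunA17MTg0491231 and the 3 kb promoters of MtrunA17MTg0490121, MtrunA17MTg0491251 and MtrunA17MTg0491271 lie among the lowest.

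The 3 features with the smallest p among the higher ones had low counts. The gene MtrunA17MTg0490551 had 20, 17 and 15 counts in SKI3 RNAi and 14, 9 and 12 counts in GUS RNAi, or 7.01, 7.31 and 5.74 CPM against 3.52, 4.15 and 3.44 CPM. In edgeR its log2 difference was 0.76 ± 0.283 (SE, adjusted p = 0.743). The 1 kb promoter of MtrunA17MTg0490561 had 18, 17 and 15 counts in SKI3 RNAi and the same 14, 9 and 12 counts in GUS RNAi, so that it was hardly a second measurement. The 1 kb promoter of MtrunA17MTg0491191 had 7.72, 9.90 and 5.74 CPM in SKI3 RNAi and 3.27, 5.07 and 5.16 CPM in GUS RNAi. The log2 difference was 0.70 ± 0.312 in edgeR (SE, adjusted p = 0.755). The 3 features with the smallest p among the lower ones were MtrunA17MTg0491231 and both 3 kb promoters that followed it.

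The other genes with most counts ranged from 19.6 to 55.2 CPM on average over all libraries, against 5121 CPM for the leading gene. MtrunA17MTg0490281 had 54.4, 57.7 and 67.0 CPM in SKI3 RNAi and 33.5, 51.7 and 67.1 CPM in GUS RNAi. Its 3 GUS RNAi libraries spanned the SKI3 RNAi range. MtrunA17MTg0491791 had 49.4, 36.6 and 39.8 CPM in SKI3 RNAi and 29.2, 52.1 and 53.1 CPM in GUS RNAi, and the groups overlapped in the same way. MtrunA17MTg0491151 differed in that its libraries separated, with 29.8, 32.3 and 31.4 CPM in SKI3 RNAi and 19.9, 24.0 and 24.4 CPM in GUS RNAi. In edgeR its log2 difference was 0.36 ± 0.190 (SE, adjusted p = 0.822). MtrunA17MTg0490651 had 30.5 ± 11.6 CPM in SKI3 RNAi and 19.8 ± 8.08 CPM in GUS RNAi (SD, n = 3 each). MtrunA17MTg0490471 had 25.1 ± 2.83 CPM in SKI3 RNAi and 21.2 ± 2.98 CPM in GUS RNAi, and MtrunA17MTg0491291 had 21.2 ± 0.904 CPM in SKI3 RNAi and 18.0 ± 4.35 CPM in GUS RNAi. Libraries of both groups overlapped in these 3 genes, with log2 fold changes of 0.55, 0.14 and 0.13 and adjusted p-values of 0.829, 0.893 and 0.909 in edgeR. That of MtrunA17MTg0490651 was 0.28 without SKI3 RNAi replicate 2.

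Among promoters, part of the counts repeated those of a gene. Of 14 mitochondrial promoters of 1 kb with at least 100 counts, 3 had counts within 2 counts or 5% of a mitochondrial gene in every library. The 1 kb promoter of MtrunA17MTg0490291 had 155, 134 and 175 counts in SKI3 RNAi and 133, 111 and 234 in GUS RNAi, against 155, 134 and 175 in SKI3 RNAi and 133, 112 and 234 in GUS RNAi for the gene MtrunA17MTg0490281. The promoters of MtrunA17MTg0491051 and MtrunA17MTg0491721 matched MtrunA17MTg0491041 and MtrunA17MTg0491731 in the same manner. The promoter of MtrunA17MTg0491051 had 22.1, 16.8 and 15.3 CPM in SKI3 RNAi and 15.6, 15.2 and 14.1 CPM in GUS RNAi, with overlap between groups. None of the 6 promoters of 3 kb with as many counts matched a gene under this tolerance. The tolerance finds only promoters that equal a whole gene. As given above, the 3 kb promoter of MtrunA17MTg0491251 had a count equal to a large part of a gene's. That of MtrunA17MTg0490121 was also large beside a gene's count, but shared reads were not shown. Promoters without such a match included that of MtrunA17MTg0490721, with 14.7, 13.8 and 14.2 CPM in SKI3 RNAi and 15.9, 13.4 and 6.02 CPM in GUS RNAi. The 3 kb promoter of MtrunA17MTg0491481 had 14.7, 19.8 and 16.5 CPM in SKI3 RNAi and 13.1, 10.6 and 16.6 CPM in GUS RNAi. Both had overlapping groups, with log2 fold changes of 0.19 and 0.21 and adjusted p-values of 0.908 and 0.871 in edgeR.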

How the data were processed

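Small RNA was counted in 6 libraries, grouped by their titles. Per the labels' protocols, libraries were made from Trizol-extracted RNA by ligating adaptors to both ends, with no molecular identifiers mentioned. The values deposited by the authors are raw counts of each feature, whole numbers without normalization. Cutadapt 2.10, Bowtie 1.3.1 and DESeq2 1.34.0 are named in the submitters' processing notes. The genome build, the use of strand and the treatment of reads with several alignments are not given in the sources used here. A stray header line in SKI3 RNAi replicate 3 was dropped.

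Differences were tested with edgeR 4.0.16 in R 4.3.3 on the whole table, with TMM factors on full library totals, filterByExpr at a minimum count of 10, the quasi-likelihood test with group as the only term and Benjamini-Hochberg adjustment over all 48283 tested features. The threshold was an adjusted p of 0.05. Standard errors (SE) were derived from the F statistic, as the log2 difference over its root. DESeq2 1.42.0 was an alternative. For values per library, exact permutation tests (two-sided) were run in SciPy 1.17.1, adjusted over 9 values. The fit was tested on simulated counts. The named features were the 8 genes, 4 promoters of 1 kb and 4 promoters of 3 kb with the highest mean CPM, and the 3 tested features with the smallest p in each direction. MtrunA17MTg0490121 and MtrunA17MTg0491251, the Chr0c03 features and the matched genes and promoters were named after their values were seen. The members, lists and tests were chosen with earlier results of these data known. Sequences were not analysed here.

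Same-numbered libraries deviated from their group means with correlations of 0.0680, 0.178 and 0.251 for replicates 1, 2 and 3. All were positive and low, and libraries of different numbers were not compared. Pairing by number is therefore not settled. The main fit did not take the numbers as pairs, and a fit with the number as a block is given below.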

Additional observations from a re-analysis of the deposited data

How the results depend on the processing

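No mitochondrial feature passed an adjusted p of 0.05 under any of the 12 other fits run in edgeR or DESeq2. Among all tested features, 346 of 317228 passed without a filter on low counts, 492 of 50549 without SKI3 RNAi replicate 1, 2 of 55418 without SKI3 RNAi replicate 3, and 0 in the other 9. The number at an unadjusted p under 0.05, 5 of 50 in the report, was 14 of 471 without a filter on low counts (4.64% of all features), 8 of 154 where 1 CPM in 3 libraries was required (5.73% of all), and 1 to 5 when single libraries were left out. The median log2 fold change of genes was 0.10 with total counts alone, 0.094 without a filter, and -0.13 to 0.040 when single libraries were left out, so its sign was not stable. That of promoters was 0.28 with total counts alone, 0.086 without a filter, 0.065 with a minimum of 1 CPM, and 0.056 to 0.18 when single libraries were left out, with ranges of 0.15 to 0.23 for 1 kb and -0.24 to -0.054 for 3 kb promoters. The filters tested more features, and scaling by totals moved the median of all features too. The causes of the differences between fits were not tested.

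The share of genes differed by -0.15 percentage points (SKI3 RNAi minus GUS RNAi), and by 0.991 when taken of organelle counts only and 0.0063 without both leading genes, each with the sign turned. The share of 3 kb promoters differed by -0.26, and by 0.00078 without the 3 leading ones. Leaving out single libraries turned no sign of a share or ratio: genes ran from -0.21 to -0.086, 1 kb promoters from 0.0093 to 0.020, 3 kb promoters from -0.37 to -0.19, and the log2 ratio to plastid genes from -0.69 to -0.46.

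Of the named features, all at adjusted p-values above the threshold, 5 turned sign when a library was left out. Without GUS RNAi replicate 1, MtrunA17MTg0490281 was at -0.11 and the 1 kb promoter of MtrunA17MTg0490291 at -0.10, and without SKI3 RNAi replicate 3 they were at -0.021 and -0.017. Without GUS RNAi replicate 3, MtrunA17MTg0491291 was at -0.030 and the 1 kb promoter of MtrunA17MTg0490721 at -0.13. Without SKI3 RNAi replicate 1, the 1 kb promoter of MtrunA17MTg0491051 was at -0.00042. Their highest values over these fits were 0.44 for MtrunA17MTg0490281, 0.44 for the promoter of MtrunA17MTg0490291, 0.32 for MtrunA17MTg0491291, 0.51 for the promoter of MtrunA17MTg0490721 and 0.25 for that of MtrunA17MTg0491051.

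With the replicate number as a block, 0 mitochondrial features passed the threshold and 7 of 50 had an unadjusted p under 0.05, beside 7.98% of all features, and the log2 ratio to plastid genes was -0.57 with an exact sign-flip p of 0.25, the smallest that 3 pairs can give. With 3 libraries a group, exact tests per library could not go below 0.1, and 510 of 560 members had too few counts to be tested.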
